A study of Mus musculus with 6 samples.

Results

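The 10 genes described here encode the sensors, mediators and kinases of the DNA damage checkpoint: Atm, Atr, Atrip, Chek1, Chek2, H2afx, Mdc1, Trp53bp1, Rad17 and Topbp1. They were taken by gene name, not by any measured value, from a table of 54532 genes. RNA-seq was performed on granulosa cells (GCs), the follicle cells that surround the oocyte, of 3-week-old female ICR mice. All mice had received PMSG, a gonadotropin that starts follicle growth, followed by a single injection of cyclophosphamide (CTX), an alkylating chemotherapeutic, or of PBS as the control. GCs were collected 6 h later in 3 PBS and 3 CTX samples, each pooling the GCs of 3 mice, so that differences between single mice were not measured. The series was designed to ask whether apoptosis of GCs under CTX goes with altered gene expression, and the comparison here asks whether transcripts of the checkpoint machinery differed at that time. No member was upregulated or downregulated by the criterion for differentially expressed genes (DEGs). H2afx had the lowest log2 fold change of the 10, with every CTX sample below every PBS sample, as in 14.1% of all tested genes. Topbp1 was a little higher in every CTX sample than in any PBS sample, as were 15.0% of all tested genes. Neither passed the test after adjustment (limma adjusted p = 0.121 for H2afx and 0.282 for Topbp1).

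The checkpoint is built around a pair of large kinases. ATM is recruited to DNA double-strand breaks by the MRE11-RAD50-NBS1 complex, and ATR is brought by its partner ATRIP to single-stranded DNA coated with RPA. RAD17 loads the ring-shaped 9-1-1 clamp at such sites, and TOPBP1, which binds the clamp, switches ATR on. ATR then phosphorylates CHK1 (Chek1) and ATM phosphorylates CHK2 (Chek2), and these effector kinases restrain the CDC25 phosphatases and the entry into mitosis. At breaks, the histone variant H2AX (H2afx) is phosphorylated to γH2AX, which binds MDC1, and MDC1 leads to the recruitment of 53BP1 (Trp53bp1). Most of this signalling runs through phosphorylation of proteins already present. The RNA levels below measure none of it.

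The site of the γH2AX mark lies at the very end of the H2afx coding sequence, in the only exon of the gene. The last 30 bases, at chr9:44335164-44335193 on the plus strand of GRCm38, are shown because this residue is the one read by antibodies to γH2AX. The serine codon is in capitals and is codon 140, which is residue 139 when the first methionine is not counted.
H2afx coding end: aaggcctcgcaggccTCTcaggagtactga
The capitals are followed by the glutamine codon that makes up, with the serine, the target of ATM and ATR. Of 2 serine codons followed directly by a glutamine codon in H2afx, it is the one nearer to the stop codon.

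Promoter sequences from RefSeq (GRCm38.p6) were matched for 9 of the 10 members, with none for H2afx. Those of Topbp1 and Atm are shown, as the member whose promoter held an E2F-type site and as a kinase gene whose start faces that of another expressed gene, which also holds for Chek2. Each stretch ends just before the first base of the gene in the deposited coordinates. For Topbp1 it is chr9:103305077-103305214 on the plus strand, and the capitals mark TTTCGCGC read from the other strand.
Topbp1: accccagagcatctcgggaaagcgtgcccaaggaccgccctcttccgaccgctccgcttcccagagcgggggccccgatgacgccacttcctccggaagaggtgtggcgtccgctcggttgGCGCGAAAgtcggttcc
For Atm it is chr9:53536741-53536921 on the minus strand, and the capitals mark a CCAAT box read from the other strand.
Atm: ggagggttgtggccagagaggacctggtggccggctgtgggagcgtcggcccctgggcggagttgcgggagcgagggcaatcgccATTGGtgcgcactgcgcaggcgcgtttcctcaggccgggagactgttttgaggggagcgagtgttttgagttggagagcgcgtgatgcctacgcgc
In the windows of that promoter table, which span each RefSeq start, CCAAT was found on either strand in Atm, Atrip, Chek2 and Mdc1, and in 37.4% of all 32851 promoters. TTTCGCGC was found in Topbp1 alone among the 9, and in 0.323% of all. TTTGGCGC (0.514% of all), TTTGAA (17.9%) and the p53 half-site (8.36%) were found in none of the 9. These are matches of letters and say nothing of the factors themselves.

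The deposited values are FPKM, the fragments counted on a gene per kilobase of its length, after scaling to depth. Rebuilt from them, the reads on genes came to between 16005869 and 18455011 per sample. All 10 members passed the filter on low values, a mean FPKM of at least 0.5, and each was covered by at least 324 reads in every sample. CTX replicate 2 stood apart from the other samples. Its score on the first principal component was 74.74, against -26.58 to 13.2 in the other 5. Its level of Lhcgr, the LH receptor gene, was 1.479 FPKM, against 111.9, 113.1 and 108.5 FPKM in the PBS samples and 128.6 and 53.09 FPKM in the other CTX samples. The summed FPKM of 8 granulosa cell markers was 11680 to 12990 in PBS and 10230 to 10860 in CTX, most of it from Inha at a mean of 9606 in PBS and 8889 in CTX. The others named here were chosen after their values were seen. Inhbb had means of 1623 FPKM in PBS and 831.4 FPKM in CTX, and Foxl2 188.0 and 109.8 FPKM. Cyp19a1 had 60.51 and 28.90 FPKM, with 6.606 FPKM in CTX replicate 2. Amh was higher in CTX, at means of 49.42 and 106.2 FPKM, with 54.25, 178.7 and 85.53 FPKM in CTX replicates 1, 2 and 3. The 5 genes listed as theca cell markers summed to 165.4 to 169.9 FPKM in PBS and 11.82 to 204.3 FPKM in CTX. Most of the PBS sum came from Lhcgr at a mean of 111.2 FPKM, with 32.69 FPKM for Cyp17a1 and 19.83 FPKM for Star. Whether the Lhcgr and Star RNA came from theca cells or from GCs was not tested. Ptch1 and Insl3 of that list had higher means in CTX, at 3.619 and 4.891 FPKM and at 0.3389 and 0.7778 FPKM. The 6 leukocyte markers, of which 3 passed the filter, summed to 16.54 to 18.45 FPKM in PBS and 19.54 to 56.51 FPKM in CTX. The 5 oocyte markers summed to 27.68 to 58.91 FPKM in PBS and 38.04 to 65.61 FPKM in CTX, and the 4 endothelial markers, of which 1 passed, to 4.411 to 5.38 FPKM and 1.779 to 4.048 FPKM. No marker was at 0 in all 6 samples and none of those tested was a DEG. Of the 8 granulosa cell markers, 5 were below PBS in every CTX sample, against 14.1% of all tested genes. The part of these differences in the results was not tested, and each member is given below with and without CTX replicate 2.

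RNA of all 10 genes was detected in the GC samples of both groups, over a wide range of levels. The samples also held RNA of oocyte, theca cell and leukocyte markers, so these levels cannot be assigned to GCs alone. In PBS, H2afx was the highest at 104.2 ± 8.65 FPKM (SD, n = 3), a level above that of 96.3% of tested genes by its mean over all 6 samples. Mdc1 followed at 16.45 ± 1.28 FPKM and Topbp1 at 11.44 ± 0.566 FPKM, and neither overlapped its neighbours in the order. Chek2 and Trp53bp1 came next and overlapped each other, followed by Chek1. Rad17 and Atrip overlapped each other below it. The apical kinase genes were the lowest, with Atm at 2.07 ± 0.249 FPKM and Atr at 1.80 ± 0.0624 FPKM, above 24.6% and 23.0% of tested genes. In CTX the order was the same except that Chek1 stood above Trp53bp1. There, Chek2 overlapped Chek1, Chek1 overlapped Trp53bp1, Rad17 again overlapped Atrip, and Atm overlapped Atr.

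**Figure D1:**
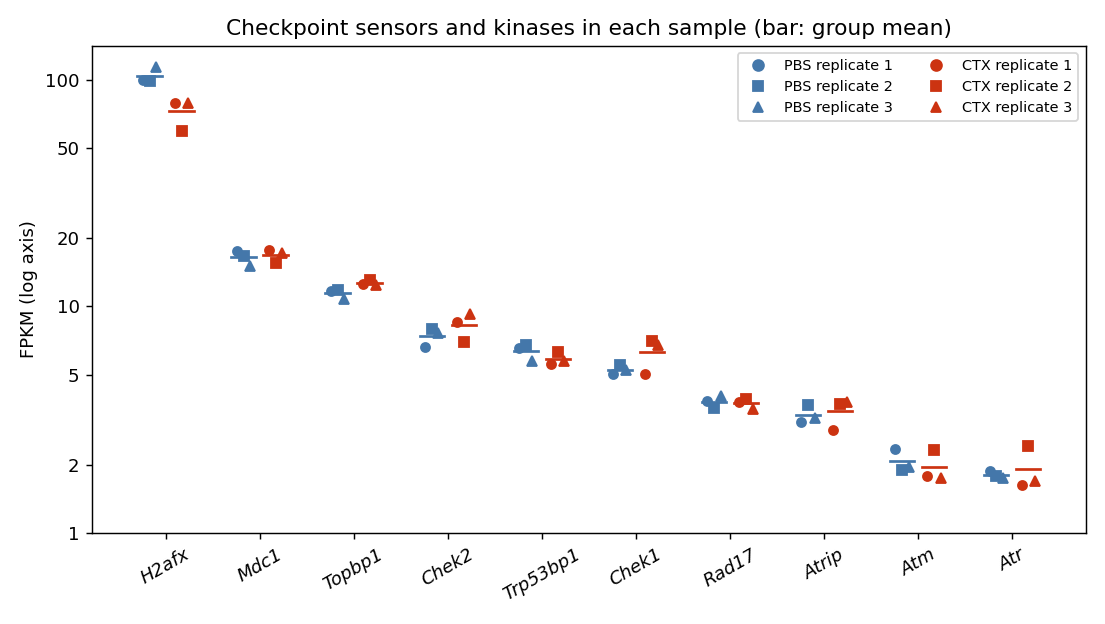
FPKM of each member in each of the 6 samples, on a log axis, with circles, squares and triangles for replicates 1, 2 and 3, PBS in blue, CTX in red, and a bar at each group mean. The PBS means run from 104.2 for H2afx to 1.80 for Atr, and the groups are separated only for H2afx and Topbp1.

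The order of levels rests on the gene length used for FPKM. The deposited length is that of all annotated exons merged, and for Atr, Rad17, Atrip and Topbp1 it was 2.92, 2.84, 2.78 and 2.15 times the length of the longest coding transcript in GENCODE M21. For Atr, 11 of the 13 annotated transcripts are retained-intron models. With the length of the longest coding transcript, an alternative chosen after seeing the data, the mean PBS level of Topbp1 was 24.59 FPKM and passed that of Mdc1 at 16.64. Rad17 then stood at 10.79, Atrip at 9.265 and Atr at 5.248, while Atm was still the lowest at 2.186. H2afx, with 1 exon and 1 transcript, kept its value of 104.2 and was still the highest.

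The limma test on log2(FPKM + 0.1) was fitted over 14463 genes, and a gene counted as a DEG past 2-fold with an adjusted p below 0.05. On this scale a fold change of a low gene is understated. By that criterion 139 genes were DEGs (0.961% of those tested), of which 116 were upregulated (0.802%) and 23 downregulated (0.159%). None of the 10 members was among them. At an adjusted p below 0.05 with any fold the count was also 0 of 10, where 1.76% of all genes passed. At an unadjusted p below 0.05 it was 1 of 10, H2afx, where 19.6% of all genes passed. Every CTX sample was above every PBS sample for 1 member, Topbp1 (15.0% of all genes), and below for 1 member, H2afx (14.1% of all genes). With limma's arrayWeights in place of equal weights, 4 members (H2afx, Chek1, Chek2 and Trp53bp1) had an adjusted p below 0.05 (0.0041, 0.0095, 0.015 and 0.045) with none past 2-fold, but 39.8% of all tested genes did so too. The fit of those weights stopped before it converged, with the lowest weight given to CTX replicate 2 (0.1635) and the highest to CTX replicate 3 (16.62).

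The sizes of the members' changes were small beside those over all genes. Their median absolute log2 fold change was 0.099, against 0.185 over all genes tested. This was not particular to them. Of the pathway lists described below, the phosphatases had 0.083, the break-site factors 0.125, the ATM activation genes 0.136 and the 9-1-1 clamp list 0.163. The cell-cycle targets had 0.281 and the p53 arm 1.524. The members' median log2 fold change was 0.037, with 6 positive and 4 negative, against -0.008 over all genes. For each member the 95% confidence interval of the change lay inside 2-fold in both directions. In bulk RNA, a change in the number of cells of a type and a change in RNA per cell cannot be told apart.

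**Figure D2:**
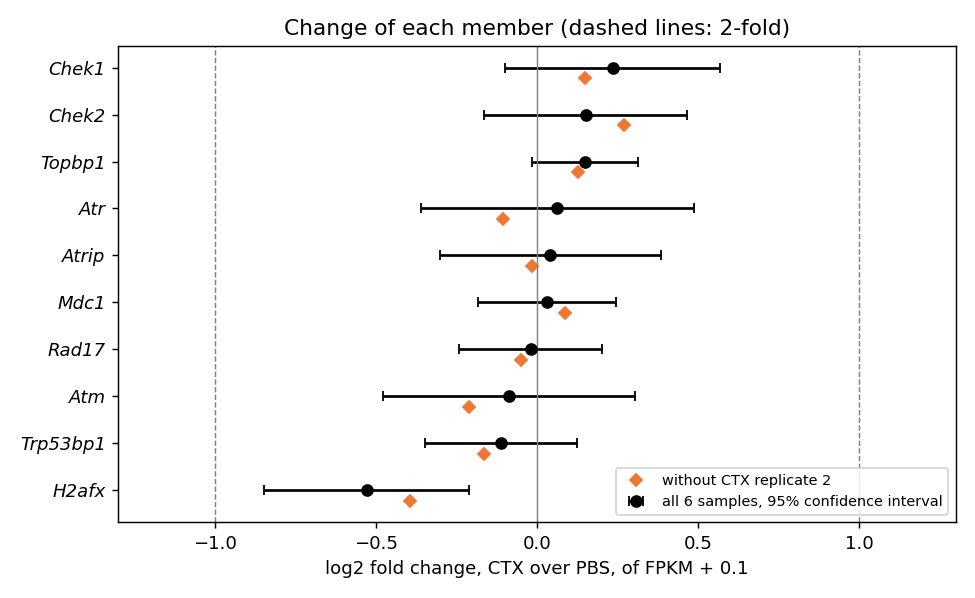
Log2 fold change, CTX over PBS, of FPKM + 0.1 for each member, with its 95% confidence interval over all 6 samples (black) and the value without CTX replicate 2 (orange diamonds). Dashed lines mark 2-fold, and only the interval of H2afx, from -0.85 to -0.21, lies wholly on one side of 0.

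Atm, at chr9:53439149-53536740 on the minus strand with 64 exons in its longest coding transcript, encodes the kinase that responds to double-strand breaks. Its level was 2.356, 1.899 and 1.953 FPKM in PBS replicates 1, 2 and 3 and 1.783, 2.323 and 1.749 FPKM in CTX. The groups overlapped, since CTX replicate 2 was just below the highest PBS sample while the other CTX samples were below all of PBS. The log2 fold change was -0.09 (SE 0.16, 95% confidence interval -0.48 to 0.31, limma adjusted p = 0.785). It was -0.21 without CTX replicate 2 and 0.0069 without PBS replicate 1, so its direction was not fixed.

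Atr (chr9:95857597-95951781, plus strand, 47 exons) encodes the kinase that responds to stalled replication and RPA-coated DNA. It measured 1.869, 1.782 and 1.748 FPKM in PBS. In CTX it measured 1.630, 2.414 and 1.696 FPKM. CTX replicate 2 was the highest of the 6 and the other CTX samples were the lowest. The log2 fold change was 0.06 (SE 0.18, interval -0.36 to 0.49, adjusted p = 0.857) and turned to -0.11 without CTX replicate 2. Atm and Atr thus shared 1 feature, a level in CTX replicate 2 that was 1.32 and 1.45 times the mean of the other CTX samples, the largest such ratios among the members.

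Atrip, the obligate partner of ATR (chr9:109057933-109074124, minus strand), measured 3.091, 3.676 and 3.228 FPKM in PBS and 2.847, 3.704 and 3.801 FPKM in CTX. The groups overlapped, with the lowest and the highest sample both in CTX. Its log2 fold change was 0.04 (SE 0.14, interval -0.30 to 0.39, adjusted p = 0.888), and -0.01 without CTX replicate 2. Within a sample, the ratio of Atr to Atrip was 0.544 ± 0.0599 in PBS and 0.557 ± 0.104 in CTX (n = 3 each, exact permutation test, two-sided p = 1.0). The ratio of Atm to Atr was 1.15 ± 0.101 in PBS and 1.03 ± 0.0658 in CTX (exact p = 0.2, and 0.4 after Benjamini-Hochberg adjustment over 6 ratios).

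The clamp loader gene Rad17 (chr13:100617164-100651051, minus strand) varied little. Its level was 3.809, 3.568 and 4.008 FPKM in PBS and 3.794, 3.910 and 3.520 FPKM in CTX, and the lowest value was in CTX and the highest in PBS. The log2 fold change was -0.02 (SE 0.09, interval -0.24 to 0.20, adjusted p = 0.920), and -0.05 without CTX replicate 2. Without PBS replicate 3 it was 0.02, and likewise without CTX replicate 3.

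Topbp1, the activator of ATR (chr9:103305215-103350428, plus strand, 28 exons), measured 11.74, 11.80 and 10.79 FPKM in PBS. In CTX it measured 12.54, 13.08 and 12.46 FPKM. The lowest CTX sample was above the highest PBS sample. Its log2 fold change was 0.15 (SE 0.07, interval -0.01 to 0.31), a rise of 1.11-fold that did not pass the test (adjusted p = 0.282). It was 0.13 without CTX replicate 2 (adjusted p = 0.379), and between 0.11 and 0.17 under every alternative run. An exact permutation test on Topbp1 alone gave p = 0.1, the smallest that 3 against 3 samples allow. Groups that do not overlap always give this value, so it adds nothing to the separation. The ratio of Topbp1 to Rad17 was 3.08, 3.31 and 2.69 in PBS and 3.31, 3.35 and 3.54 in CTX (exact p = 0.1, adjusted 0.3). These ratios did not overlap between groups with the pseudocount of 0.1 and did overlap without it.

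Among the effector kinases, Chek1 (chr9:36708482-36727065, minus strand) had the highest log2 fold change of the members. It measured 5.024, 5.507 and 5.235 FPKM in PBS and 5.036, 7.004 and 6.756 FPKM in CTX. The groups overlapped because CTX replicate 1 lay at the level of the lowest PBS sample, with the other CTX samples above all of PBS. PBS replicate 1 and CTX replicate 1, the lowest samples for Chek1 and Atrip, were also the lowest for all 5 oocyte markers. Whether oocyte RNA had a part in this was not tested. Chek1 changed by 0.24 on the log2 scale (SE 0.14, interval -0.10 to 0.57, adjusted p = 0.378). It was 0.15 without CTX replicate 2 and 0.38 without CTX replicate 1, and 59.0% of tested genes had a smaller change in either direction.

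Chek2 (chr5:110839979-110874145, plus strand) measured 6.619, 7.924 and 7.612 FPKM in PBS and 8.550, 6.930 and 9.263 FPKM in CTX. CTX replicates 1 and 3 were above all of PBS and CTX replicate 2 was below the upper PBS samples. CTX replicate 2 was thus the lowest CTX sample for Chek2 and the highest for Chek1. Its log2 fold change was 0.15 (SE 0.13, interval -0.17 to 0.47, adjusted p = 0.536) and 0.27 without CTX replicate 2 (adjusted p = 0.217). The ratio of Chek1 to Chek2 was accordingly 0.589, 1.01 and 0.729 in CTX, a range that enclosed the PBS values of 0.759, 0.695 and 0.688 (exact p = 0.8).

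H2afx (chr9:44334694-44336077, plus strand) showed the clearest difference among the members. It measured 99.74, 98.64 and 114.1 FPKM in PBS. In CTX it measured 79.18, 59.66 and 78.97 FPKM. All CTX samples were below all PBS samples, CTX replicate 2 was the lowest, and the other CTX samples were nearly equal. The group means were 104.2 ± 8.65 and 72.6 ± 11.2 FPKM (SD, n = 3 each), a fold of 0.693 (95% confidence interval 0.556 to 0.864). The log2 fold change of -0.53 (SE 0.13) did not pass the test after adjustment (limma adjusted p = 0.121, and 0.0041 to 0.35 over the alternatives, below 0.05 only with arrayWeights). Without CTX replicate 2 it was -0.39 (adjusted p = 0.0699). Of all genes tested, 8.57% had a log2 fold change as low or lower. Between 1465 and 2559 reads covered the gene per sample, but how reads shared with other H2A genes were counted is not given in the sources used here.

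Mdc1 (chr17:35841515-35859670, plus strand), which binds γH2AX, measured 17.54, 16.77 and 15.04 FPKM in PBS and 17.79, 15.52 and 17.13 FPKM in CTX, with the groups overlapping. Its log2 fold change was 0.03 (SE 0.09, interval -0.18 to 0.25, adjusted p = 0.857). It was 0.09 without CTX replicate 2 and -0.03 without PBS replicate 3. The ratio of Mdc1 to H2afx was higher in each CTX sample than in any PBS sample, at 0.225, 0.260 and 0.217 against 0.176, 0.170 and 0.132 in PBS. The difference of the log2 ratio was 0.56 (exact p = 0.1, adjusted 0.3), and it was between 0.43 and 0.64 with any sample left out. With 0.03 for Mdc1 and -0.53 for H2afx, it mostly restates the lower level of H2afx and is no separate result.

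Trp53bp1 (chr2:121193281-121271407, minus strand), the gene of 53BP1, measured 6.556, 6.770 and 5.719 FPKM in PBS and 5.551, 6.311 and 5.722 FPKM in CTX. The groups overlapped, although the lowest sample was in CTX and the highest in PBS. The log2 fold change was -0.11 (SE 0.10, interval -0.35 to 0.12, adjusted p = 0.540) and -0.17 without CTX replicate 2. The ratio of Trp53bp1 to Mdc1 was 0.386 ± 0.0157 in PBS and 0.351 ± 0.0495 in CTX (exact p = 0.4, adjusted 0.6).

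The samples of the CTX group did not move as a block. CTX replicate 2 was above both other CTX samples for Atm, Atr, Chek1, Trp53bp1, Rad17 and Topbp1, and below both for H2afx, Mdc1 and Chek2. Its level relative to the mean of the other CTX samples ran from 0.754 for H2afx to 1.45 for Atr. The SD of Atr was 0.0624 FPKM in PBS and 0.435 FPKM in CTX, and that of Chek1 was 0.242 and 1.07 FPKM.

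The other genes of the pathway were read from 6 lists, in which 63 of 65 genes were tested. Of these 3 were DEGs, all upregulated and all in the p53 arm, where 0.802% of all tested genes were upregulated. Over all tested genes, 15.0% were above PBS in every CTX sample and 14.1% below, the shares to set beside the counts here. Of 16 tested genes of the 9-1-1 clamp, RPA and the ATR activators, none was a DEG, with 6 above PBS in every CTX sample and 2 below. Rpa2, a subunit of the RPA complex that coats single-stranded DNA, was 18.1 ± 1.17 FPKM in PBS and 22.7 ± 0.638 FPKM in CTX (log2 fold change 0.33, adjusted p = 0.096). Rfc3, a small subunit that RAD17 shares with the replication clamp loader, was 10.1 ± 0.290 and 12.5 ± 0.281 FPKM (0.30, adjusted p = 0.081). Like Topbp1, both were higher in all CTX samples and changed by at most 1.25-fold. The 2 below, Rad9a and Rhno1, were named after their values were seen. Rad9a was 10.9 ± 0.425 FPKM in PBS and 8.88 ± 0.283 FPKM in CTX (-0.30, adjusted p = 0.10), and Rhno1 had a log2 fold change of -0.12 (adjusted p = 0.39). Of 9 genes that activate ATM or fold the large kinases, none was a DEG, with 3 above PBS in every CTX sample and 1 below. The 1 below, Atmin, which encodes an ATM-interacting protein and was named after its values were seen, had a log2 fold change of -0.14 (adjusted p = 0.31). The largest changes among genes whose groups did not overlap were in Rad50, with a log2 fold change of 0.23 (adjusted p = 0.22), and Mre11a, at 0.22 (adjusted p = 0.27), both subunits of the complex that brings ATM to breaks.

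Of 16 tested ubiquitin and end-protection factors that act at breaks, none was a DEG, 5 were above PBS in every CTX sample and 1 below. The shares over all tested genes were 15.0% and 14.1%. Shld2, a shieldin subunit that acts after 53BP1, was 2.04 ± 0.0830 FPKM in PBS and 2.82 ± 0.257 FPKM in CTX (log2 fold change 0.45, adjusted p = 0.13). Bard1, the partner of BRCA1, was 3.01 ± 0.318 and 3.94 ± 0.422 FPKM (0.38, adjusted p = 0.19).

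Of 6 phosphatase genes that act to end checkpoint signalling, 1 had an adjusted p below 0.05 at any fold, where 1.76% of all tested genes did. Ppm1d, a p53 target whose product WIP1 removes phosphates from ATM, CHK2 and γH2AX, measured 6.631, 6.326 and 6.732 FPKM in PBS and 9.756, 8.828 and 9.324 FPKM in CTX. Every CTX sample was above every PBS sample, as in 15.0% of all tested genes. The change was 1.41-fold (log2 0.50, SE 0.07, adjusted p = 0.031), short of the fold criterion for DEGs. Of the other 5 phosphatase genes none passed, and Ppp4r2, a regulatory subunit of protein phosphatase 4, was -0.13 on the log2 scale (adjusted p = 0.34).

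The p53 arm, which lies downstream of ATM and CHK2, was the only list with DEGs. Of its 6 genes 3 were upregulated, where 0.802% of all tested genes were. Cdkn1a, which encodes the CDK inhibitor p21, rose by 6.28-fold (limma adjusted p = 0.0019). The cyclin gene Ccng1 rose by 4.54-fold (adjusted p = 0.0013) and Phlda3, which encodes an inhibitor of AKT, by 12.7-fold (adjusted p = 0.00045). Mdm2, named after its values were seen, rose by 1.82-fold (adjusted p = 0.022). The lowest CTX sample of each of these 4 genes was CTX replicate 2, yet that sample was still above all PBS samples. The list's median log2 fold change was 1.52, against 0.037 for the 10 members. It was known to respond in these samples when it was chosen, so its count is a description.

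**Figure D3:**
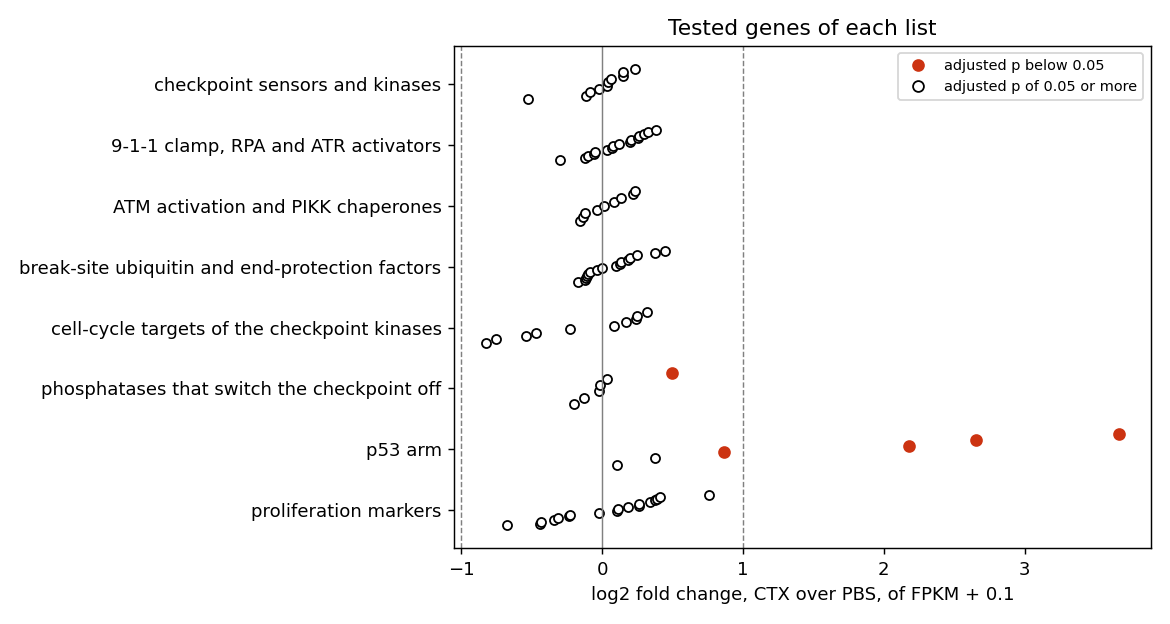
Log2 fold change, CTX over PBS, of FPKM + 0.1 for each tested gene of the members, the other pathway lists and the proliferation markers, filled red at an adjusted p below 0.05. Of the members none is red, and the red points are Ppm1d and 4 genes of the p53 arm.

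The list named cell-cycle targets of the checkpoint kinases also takes in genes further downstream, such as those of cyclins. Its 10 genes held no DEG either, but 5 of them were below PBS in every CTX sample and 2 above. Over all tested genes these shares were 14.1% and 15.0%. Cdc25c, which encodes a phosphatase inhibited by CHK1 and CHK2, measured 12.89, 12.53 and 12.91 FPKM in PBS and 7.704, 5.488 and 8.714 FPKM in CTX. Its log2 fold change was -0.82 (SE 0.17, adjusted p = 0.078), and -0.64 without CTX replicate 2 (adjusted p = 0.014). Plk1, the mitotic kinase that ends the checkpoint, measured 38.30, 41.02 and 39.39 FPKM in PBS and 27.98, 19.04 and 24.19 FPKM in CTX. Its log2 fold change was -0.75 (SE 0.14, adjusted p = 0.062), and -0.60 without CTX replicate 2 (adjusted p = 0.019). The others below PBS in all CTX samples, named after their values were seen, were Cdk1, Ccnb1 and Cdc25b. H2afx shared with Plk1, Cdc25c and Ccnb1 that CTX replicate 2 was the lowest sample.

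Proliferation markers did not move in 1 direction. Of 18 tested, 8 were above PBS in every CTX sample and 3 below, and none was a DEG. Among all tested genes, 15.0% were above in this way and 14.1% below. Rrm2, a subunit of ribonucleotide reductase, was 34.0 ± 1.22 FPKM in PBS and 58.5 ± 11.4 FPKM in CTX (log2 fold change 0.76, adjusted p = 0.073), and without CTX replicate 2 the change was 0.93 (adjusted p = 0.0016). Cenpf, a kinetochore gene, was 3.93 ± 0.251 and 2.44 ± 0.378 FPKM (-0.68, adjusted p = 0.077). Over the 28 genes of these 2 lists, 8 were below PBS in every CTX sample, and CTX replicate 2 was the lowest sample for all 8. For the 10 that were above, it was the highest for 6. Pcna, the sliding clamp of replication and named after its values were seen, was 66.7 ± 3.57 FPKM in PBS and 86.7 ± 4.79 FPKM in CTX (0.38, adjusted p = 0.073). The part of the cell-cycle genes in the lower level of H2afx was not tested.

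**Figure D4:**
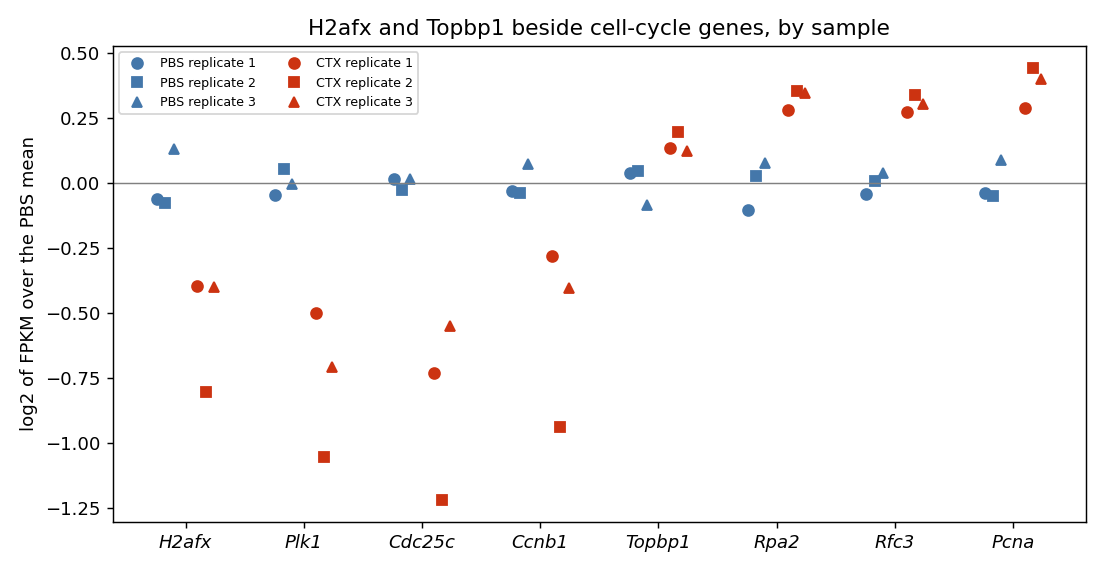
Log2 of FPKM over the PBS mean, by sample, for H2afx and Topbp1 beside cell-cycle and replication genes, with PBS in blue and CTX in red. CTX replicate 2 (square) is the lowest sample for H2afx, Plk1, Cdc25c and Ccnb1, and the highest for Topbp1, Rpa2, Rfc3 and Pcna. The genes shown are a selection, with Ccnb1 and Pcna picked after their values were seen. Of the 10 cell-cycle targets and proliferation markers above PBS in every CTX sample, CTX replicate 2 was the highest sample for 6.

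The genes whose pattern was most like that of H2afx over the 6 samples were Raver2 (Pearson r = 0.9968), H2afz (0.9964) and Kif22 (0.9964), out of 14463. H2afz, which encodes the histone variant H2A.Z, measured 267.2, 256.5 and 281.8 FPKM in PBS and 226.5, 191.0 and 225.1 FPKM in CTX. Kif22, a kinesin gene, measured 17.45, 17.88 and 19.87 FPKM in PBS and 14.34, 10.84 and 14.68 FPKM in CTX. Those most like Chek1 were Cep126 (0.9983), Chchd6 (0.9928) and Wdr83os (0.9885), which like Chek1 were near the PBS level in CTX replicate 1 and higher in the other CTX samples. The points share their libraries, and with 6 of them such values describe these samples only.

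Of the 10 members, 6 lie on chromosome 9, which holds 5.58% of all tested genes, and several share sequence or a start region with other genes. Trex1, a DNA exonuclease gene on the same strand, lies wholly inside Atrip in the annotation and was listed at 0 in all 6 samples. Which reads there were given to Atrip cannot be told from the table. Tubgcp4 overlaps Trp53bp1 by 5490 bases on the opposite strand and had a log2 fold change of -0.07 (adjusted p = 0.75). Ak6 overlaps Rad17 by 73 bases, also on the opposite strand, and had -0.28 (adjusted p = 0.32), with Taf9 starting 528 bases from Rad17. Strand use in the counting is not given in the sources used here, and if reads were counted without strand those of overlapping genes on opposite strands cannot be told apart. The antisense genes Gm16794 and 1700065D16Rik over Atr held 99 and 9 reads in all, against 4656 for Atr. The snRNA gene Gm24004 inside Atr and the miRNA gene Gm44335 inside H2afx held none, and Gm48853, which starts 308 bases from H2afx, held 15.

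Among genes that start beside a member, the best covered was Npat, the histone gene coactivator, which starts 307 bases from Atm in the opposite direction. Npat was 5.34 ± 0.448 FPKM in PBS and 6.08 ± 0.315 FPKM in CTX (log2 fold change 0.19, adjusted p = 0.31), where Atm had -0.09. Hscb starts 202 bases from Chek2 and was 10.98 ± 1.24 and 11.8 ± 0.220 FPKM (0.11, adjusted p = 0.54). 1300017J02Rik, which starts 133 bases from Topbp1, held only 41 reads in all.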

How the data were processed

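RNA was extracted from mouse GCs and libraries were made with a NEBNext Ultra kit and sequenced at a company. The submitters' processing notes name CASAVA 1.8, fastp, HISAT2 2.0.5, featureCounts 1.5.0-p3, DESeq2 1.20.0 and the mm10 build, without settings. The authors deposited FPKM values per gene and sample, and all values above 0 were whole reads (100% within 0.01 of a read) once multiplied by gene length and depth. The table also holds a group mean signal deposited by the authors, and the authors' log2 fold change, p-value and adjusted p-value, none of which was used.

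The 14463 genes whose FPKM averaged 0.5 or more over the samples entered limma 3.58.1 (lmFit, eBayes with trend, R 4.3.3) as log2(FPKM + 0.1), on the 3 PBS and 3 CTX samples with no covariate. Benjamini-Hochberg adjustment ran over all of them. The fit was tested on simulated data whose spread was taken from the PBS samples only. That test therefore did not cover a sample that stands apart, as CTX replicate 2 does here. Ratios of members within a sample were compared with two-sided exact permutation tests. Other steps used pandas 2.3.3, NumPy 2.4.6, SciPy 1.17.1 and matplotlib 3.10.9 in Python 3.11.15. Gene models came from GENCODE M21, whose coordinates equalled the deposited ones for all 10 members.

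At the depth of these samples, 3 reads on a gene of 1 kb came to 0.164 to 0.185 FPKM. The members, the other gene lists and the tests were chosen with earlier results of these data known. Besides all members, genes of a list are named if they were DEGs, or else as the 2 largest changes among genes whose groups did not overlap. Genes that overlap a member or start within 2 kb of it are also named, as are the 3 most correlated with the highest and the lowest member. Replicate numbers were not used as a block. Replicates 1, 2 and 3 of PBS and CTX come from different mice, and the correlations of their deviations from the group means were 0.0556, 0.0242 and 0.00581. As alternatives, the pseudocount was set to 1 or 0.01 and the filter to none or 5 FPKM, and the fit was repeated with library totals, quantile normalization, arrayWeights, a replicate block, with eBayes without trend, voom on the rebuilt reads, other thresholds, or 1 sample left out in turn. Counts of members at any fold and levels per coding transcript were added after seeing the data.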

Additional observations from a re-analysis of the deposited data

How the results depend on the processing

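No member was a DEG under any alternative in which it was tested. With the filter at 5 FPKM, Atm, Atr, Atrip and Rad17 were not tested. Leaving out the fold threshold added no member except with arrayWeights, where 4 passed. H2afx, Trp53bp1, Chek1, Chek2 and Topbp1 kept their direction in every fit. The other 5 did not when samples were left out in turn, and their log2 fold changes ran from -0.211 to 0.0069 for Atm, -0.107 to 0.162 for Atr, -0.032 to 0.170 for Atrip, -0.031 to 0.088 for Mdc1 and -0.062 to 0.022 for Rad17. That of Atr was also -0.079 with arrayWeights. The log2 ratio of Atr to Atrip ran from -0.094 to 0.167 and that of Chek1 to Chek2 from -0.121 to 0.263, and of the 2 ratios whose groups did not overlap 1 remained with no pseudocount. The ratio that did not remain was Topbp1 to Rad17, which rounded to 3.31 in both PBS replicate 2 and CTX replicate 1. The cause of the changes in direction was not tested. The number of DEGs, 139, was 657 with arrayWeights, 254 with no fold threshold, 420 at unadjusted p and 58 to 205 with a sample left out, falling by over 1.5 times without any 1 of the PBS samples (67, 66 and 58) or CTX replicate 3 (84). Pathway list genes called numbered 5 in place of 3 with no fold threshold. With a replicate block there were 50 DEGs, none of them a member. The replicate numbers did not pair the samples. The median of all genes moved by under 0.1 on the log2 scale with any scaling.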
